A study of Rattus norvegicus with 96 samples.

Results

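HAD2 and LAD2 are rat lines bred for high and for low alcohol drinking, and the present data compare gene expression between them in the central nucleus of the amygdala. The arrays were chosen by the line pair named in the sample titles, which gave 20 of the 96 arrays of the series: 10 from HAD2 rats (labelled Pr, the preferring line, animals 1 to 10) and 10 from LAD2 rats (labelled NPr, animals 11 to 20). The other arrays come from 4 further line pairs bred for opposite alcohol preference, of which HAD1 and LAD1 (9 and 10 arrays) were used here as the most similar pair. The sample titled LAD1 36 is called HAD1 in its source name, and its title was followed. No transgene, drug or other treatment is named for any of these groups, and the labels used here give no age, sex or alcohol exposure. Each array measured biotin-labelled cRNA of the dissected nucleus on Affymetrix rat arrays, on which a gene may be covered by several probe sets, groups of short probes against different stretches of its transcripts. Values are on a log2 scale, so that a difference of 1 is a doubling.

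The central nucleus of the amygdala is the main output nucleus of the amygdala and consists mostly of inhibitory neurons that carry peptides such as enkephalin, somatostatin and corticotropin-releasing hormone. It is studied for its part in fear, stress and alcohol drinking. The HAD and LAD lines were bred from a genetically mixed stock in independent replicates, so HAD2 and LAD2 are a repeat of HAD1 and LAD1 with their own founders. Animals of a line share descent, and alleles that were fixed by selection and by drift cannot be told apart with 1 pair of lines.

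The labelled nucleus was checked against its markers by level alone, since no detection calls were used here and levels of different probe sets cannot be ranked against each other. Penk, the enkephalin precursor, had a mean of 13.41 ± 0.52 over the HAD2 arrays and of 13.63 ± 0.34 over the LAD2 arrays (SD, n = 10 each). The other measured peptide and kinase markers of these neurons (Pdyn, Sst, Nts, Cartpt, Prkcd, Gal, Crh and Tac1) had HAD2 means between 8.35 (Tac1) and 11.64 (Pdyn). The markers Drd1, Ppp1r1b, Drd2 and Adora2a of the adjacent striatum had HAD2 means between 8.41 and 10.32, and the cortical neuron markers Tbr1, Slc17a7, Neurod6 and Emx1 between 5.29 and 6.60. These values do not tell central amygdala from striatum. Several arrays stood apart. HAD2 6 had the lowest summed level of the central amygdala markers, 83.1 over 9 measured markers of 10, against up to 96.8 in HAD2 and 90.5 to 99.7 in LAD2, and its level of Crh, the corticotropin-releasing hormone gene, was 6.0 where the other HAD2 arrays had 8.78 to 9.96. LAD2 14, 15 and 16 had levels of Alb, the albumin gene, of 13.50, 13.61 and 13.63 where the other 7 LAD2 arrays had 6.80 to 7.85, and together with LAD2 12 they were high in Ttr, the transthyretin gene of the choroid plexus. HAD2 7 and 10 had the lowest Gapdh ratio, the log2 ratio of the 3' to the 5' control probe set that falls with less degraded RNA, at 2.44 and 2.37 against 3.37 for the next HAD2 array. The mean ratio was 3.43 ± 0.58 in HAD2 and 3.33 ± 0.26 in LAD2 (SD, 10 arrays a line; permutation test, two-sided p = 0.614, adjusted p = 0.809 over 3 control genes). The medians of the 20 arrays lay between 7.84 and 7.92.

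HAD2 and LAD2 differed in 1271 of 31042 probe sets (4.09%; limma, Benjamini-Hochberg adjusted p under 0.05), of which 677 (2.2%) were higher and 594 (1.91%) were lower in HAD2. The balance of directions turned with the arrays set to their medians, which lowers every difference by 0.02 (597 higher and 705 lower), and without LAD2 14, 15 and 16 (420 and 433). A gene was represented by its brightest probe set with 1 symbol, and by this rule 544 of 14217 genes passed (3.83%), 310 (2.2%) higher and 234 (1.65%) lower. Most differences were moderate: 582 probe sets that passed differed by 0.25 to 0.5 and 337 by 0.5 to 1, against 92 that differed by 1 to 2 and 28 that differed by 2 or more. The median absolute difference of those that passed was 0.40, and the median difference of all probe sets was -0.01. Every HAD2 array lay outside the range of the LAD2 arrays in 267 probe sets (0.86%), 134 (0.432%) higher and 133 (0.428%) lower. By level, 1.86% of the 7760 dimmest probe sets passed, then 4.70% and 5.93% of those at middle levels and 3.89% of the 7761 brightest. The count depended on the arrays included: 2204 probe sets passed without HAD2 7 and 10, of which 1184 had passed in the same direction with all arrays, and 853 passed without LAD2 14, 15 and 16.

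**Figure D1:**
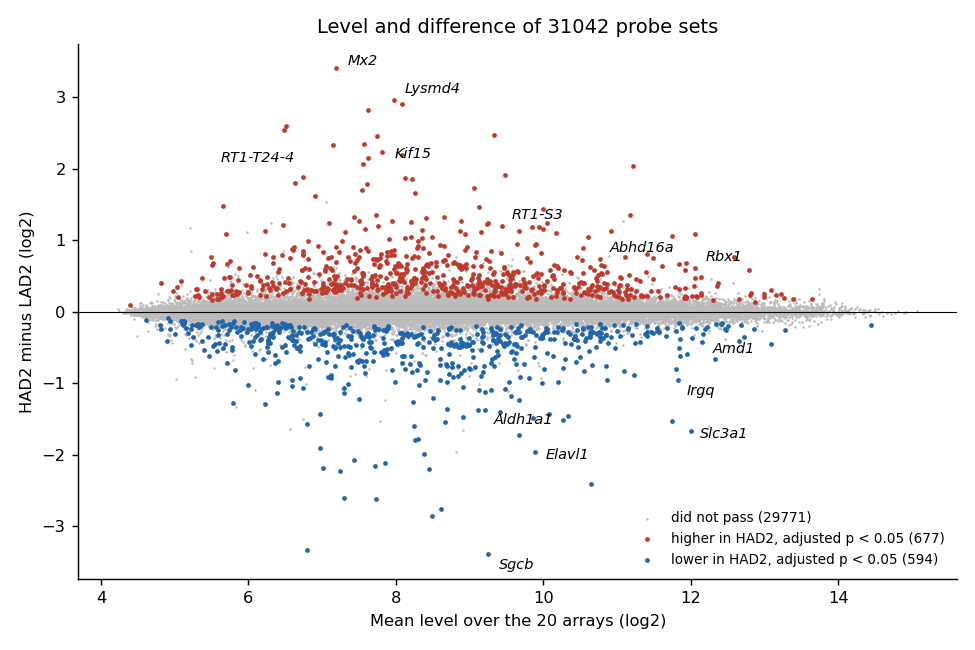
Mean level over the 20 arrays (x axis, log2) against the HAD2 minus LAD2 difference (y axis, log2) for each of 31042 probe sets, in red (677, higher in HAD2) or blue (594, lower) where the adjusted p was under 0.05 and in grey otherwise. Differences past the test occur over the whole range of levels, and the few above 2 in size, such as Mx2 at 3.40 and Sgcb at -3.40, lie mostly at middle levels.

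Among genes of antiviral defence and antigen presentation, 4 were higher in HAD2 by more than 1 in at least 1 probe set: Mx2, Ifi27, RT1-S3 and RT1-T24-4. They were singled out after their values were seen, and most members of their lists did not pass or went the other way, as given with each list. Mx2 encodes an interferon-induced GTPase that blocks viruses, Ifi27 is another interferon-induced gene, and RT1-S3 and RT1-T24-4 are class I genes of the rat major histocompatibility complex, whose products display peptides to lymphocytes. Interferon-induced genes often carry a promoter element that interferon regulatory factors bind, with GAAA repeated after NN. The promoters of Ifi27, RT1-S3 and RT1-T24-4 are shown because these are the genes of this group with a difference above 1 whose promoter was at hand. Each runs from 250 bases before to 50 after the gene's start on the plus strand in RefSeq (build GRCr8), and capitals mark matches, on either strand, to GAAA followed by any 2 bases and GAAA.
Ifi27, chr6:128355062-128355361, plus strand: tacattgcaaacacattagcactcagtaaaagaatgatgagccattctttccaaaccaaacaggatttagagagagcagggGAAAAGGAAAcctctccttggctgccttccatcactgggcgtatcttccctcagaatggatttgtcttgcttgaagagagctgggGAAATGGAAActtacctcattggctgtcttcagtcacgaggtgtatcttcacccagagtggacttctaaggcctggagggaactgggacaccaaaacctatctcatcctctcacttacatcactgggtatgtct
RT1-S3, chr20:2675278-2675577, plus strand: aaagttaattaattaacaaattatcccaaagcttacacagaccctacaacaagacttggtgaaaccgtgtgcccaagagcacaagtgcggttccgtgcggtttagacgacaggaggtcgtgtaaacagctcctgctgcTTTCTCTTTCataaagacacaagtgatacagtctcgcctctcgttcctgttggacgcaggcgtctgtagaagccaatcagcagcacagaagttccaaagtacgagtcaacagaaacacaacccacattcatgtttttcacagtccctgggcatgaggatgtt
RT1-T24-4, chr20:2689083-2689382, plus strand: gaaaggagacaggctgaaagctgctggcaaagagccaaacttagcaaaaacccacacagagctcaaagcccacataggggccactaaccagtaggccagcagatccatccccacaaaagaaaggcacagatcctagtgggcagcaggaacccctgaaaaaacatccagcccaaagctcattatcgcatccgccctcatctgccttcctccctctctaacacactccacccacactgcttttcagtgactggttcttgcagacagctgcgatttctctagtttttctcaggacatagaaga
The Ifi27 promoter held 2 matches as written, which began 169 and 84 bases before the start, and the RT1-S3 promoter held 1 match on the other strand, 112 bases before the start. The RT1-T24-4 window held none of these letters. A match was present in 3.92% of 33469 promoters of this length, in 3.21% of those of 11700 measured genes, in 9 of 18 interferon response genes that had a promoter in the table, and in 9 of 248 genes that were higher in HAD2.

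Mx2 had levels of 8.36, 8.98 and 9.26 (lowest, median and highest) in HAD2 and of 5.01, 5.44 and 6.10 in LAD2. The lines did not overlap, and the difference was 3.40 (SE 0.13), 10.6-fold (limma, adjusted p = 2.37e-14). This value belongs to 1 of 2 Mx2 probe sets, and the other, at a similar level, differed by 0.12 (adjusted p = 0.653). Ifi27 ranged from 10.04 to 11.32 with a median of 10.50 in HAD2 and from 8.77 to 9.91 with a median of 9.52 in LAD2, without overlap, a difference of 1.16 (SE 0.15; adjusted p = 1.16e-05). These were the genes that passed among 25 measured complement and interferon response genes (8%, against 3.83% of all genes). Of the 25 differences, 16 were positive and their median was 0.07, against -0.00 for all genes.

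RT1-S3 was the gene with the most probe sets in agreement: each of its 4 probe sets was higher in HAD2, by 0.58, 0.99, 1.05 and 1.19. The brightest had levels of 9.79 to 10.54 in HAD2 and of 8.46 to 9.69 in LAD2, with medians of 9.998 and 8.80 and with LAD2 14 as the highest LAD2 array and still below every HAD2 array (adjusted p = 2.67e-07). RT1-T24-4, with 1 probe set, stood at 7.85 to 8.84 in HAD2 and 5.76 to 6.46 in LAD2, a difference of 2.32 (SE 0.12; adjusted p = 2.77e-12). Other class I genes went both ways. RT1-CE16 was higher by 0.74 (SE 0.17), while RT1-A3 at -0.33, RT1-M3-1 at -0.33, RT1-CE10 at -0.26 and RT1-CE12 at -0.32 were lower. A further RT1-A3 probe set did not pass. In all, 3 of 22 measured class I and antigen processing genes passed as higher and 4 as lower. This was 31.8%, against 3.83% of all genes, and the list median was -0.01. Class I genes are close copies of one another, so a probe set may bind more than 1 of them. RT1-CE16 and RT1-M3-1 lost their call without LAD2 14, 15 and 16 (adjusted p = 0.0636 and adjusted p = 0.0562).

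Class II genes, which mark antigen-presenting cells, had a median difference of -0.46 over 8 measured genes. RT1-DMb, a subunit of the class II peptide loading complex, was the member that passed (difference -0.47, SE 0.12; adjusted p = 0.0291), and it lost its call without HAD2 2, 3, 4 or 5 (adjusted p up to 0.0583). In this list LAD2 14 lay far from the rest, at 13.78 for RT1-Da and 12.98 for Cd74, the invariant chain gene, where the other LAD2 arrays had at most 8.31 and 7.52. Its part in the list median was not tested.

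Moderate differences were also found among well-expressed genes. Among the 7761 probe sets with a level of 9.88 or more, the 75th percentile, 302 passed (3.89%), and 205 of these differed by 0.25 to 1, 113 higher and 92 lower in HAD2. Their median absolute difference was 0.38. The lines did not overlap in 53 of them, as in 267 (0.86%) of all 31042 probe sets. The 205 had been chosen by passing the test, so a higher share among them follows from that choice. Of the 205, 135 have an informative gene symbol, and the 12 in each direction with the smallest p are described here. Without HAD2 7 and 10 there were 356 such probe sets.

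Among the higher genes, Abhd16a, which encodes a phosphatidylserine lipase, had the smallest p. Its levels were 11.01, 11.15 and 11.26 in HAD2 and 10.26, 10.37 and 10.62 in LAD2 (lowest, median and highest). The lines were clear of each other although the difference was 0.73 (SE 0.05), a 1.66-fold change (adjusted p = 1.51e-09). Ncoa4, the receptor that delivers ferritin to autophagy, stood at 11.68 to 12.03 in HAD2 and 10.87 to 11.47 in LAD2, a difference of 0.75 (SE 0.07; adjusted p = 1.66e-07). Rbx1, the RING subunit of cullin ubiquitin ligases, had levels of 12.20 to 12.55 in HAD2 and 11.47 to 12.03 in LAD2, and Cops9, a subunit of the COP9 signalosome that acts on cullins, had 12.88 to 13.27 and 12.22 to 12.75. They differed by 0.60 (SE 0.07; adjusted p = 1.21e-06) and by 0.58 (SE 0.06; adjusted p = 1.66e-06).

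The other higher genes of this class had varied functions. Ndufaf4, an assembly factor of respiratory complex I, was higher by 0.46, and Iftap, which binds the intraflagellar transport machinery of cilia, by 0.45. Med22, a subunit of Mediator, was higher by 0.51, Snrpd1, a core protein of splicing snRNPs, by 0.35 (whereas Snrpf, of the same core, was lower by -0.38), the snoRNA host gene Snhg4 by 0.58 and the zinc finger gene Zfp612 by 0.55. Epm2aip1, whose product binds laforin, reached 13.13 to 13.36 in HAD2 against 12.80 to 13.03 in LAD2, a 1.2-fold difference without overlap (0.30, SE 0.04; adjusted p = 1.04e-05). A second probe set did not pass for Rbx1 (0.06), Zfp612 (0.21) and Snrpd1 (0.12), nor did either further one for Epm2aip1 (0.31 and -0.07).

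Among the lower genes, Irgq, a gene of the immunity-related GTPase family, had levels of 10.61, 11.42 and 11.58 in HAD2 and of 11.99, 12.34 and 12.47 in LAD2. HAD2 8 was the lowest array by a wide margin, and the other HAD2 arrays also lay below every LAD2 array (difference -0.96, SE 0.09; adjusted p = 9e-08). Amd1, which makes the aminopropyl donor of polyamine synthesis, stood at 11.74 to 12.09 in HAD2 and 12.26 to 12.47 in LAD2, a difference of -0.43 (SE 0.04; adjusted p = 3.65e-07). Il33, an alarmin cytokine that glia of the brain express, ranged from 9.48 to 9.98 in HAD2 and from 10.25 to 10.62 in LAD2, a difference of -0.63 (SE 0.07; adjusted p = 1.19e-06). A second, dimmer probe set of Il33 differed by 0.27 and did not pass.

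The remaining lower genes of this class covered several functions. Nkiras1, an inhibitor of NF-kappaB signalling, differed by -0.83, and Epb41l3, which ties membrane proteins to the cytoskeleton, by -0.79. Cbr1, a carbonyl reductase, differed by -0.49, Ccdc137 by -0.58, the topoisomerase Top3b by -0.33, and Apbb3, an adaptor of the amyloid precursor protein, by -0.29. Esyt2, a tether between endoplasmic reticulum and plasma membrane, Resf1 and Ttc9c each differed by -0.37. A second probe set of Esyt2 (-0.09) and of Resf1 (-0.11) did not pass, and 1 of 4 Ttc9c probe sets passed in the other direction (0.19).

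**Figure D2:**
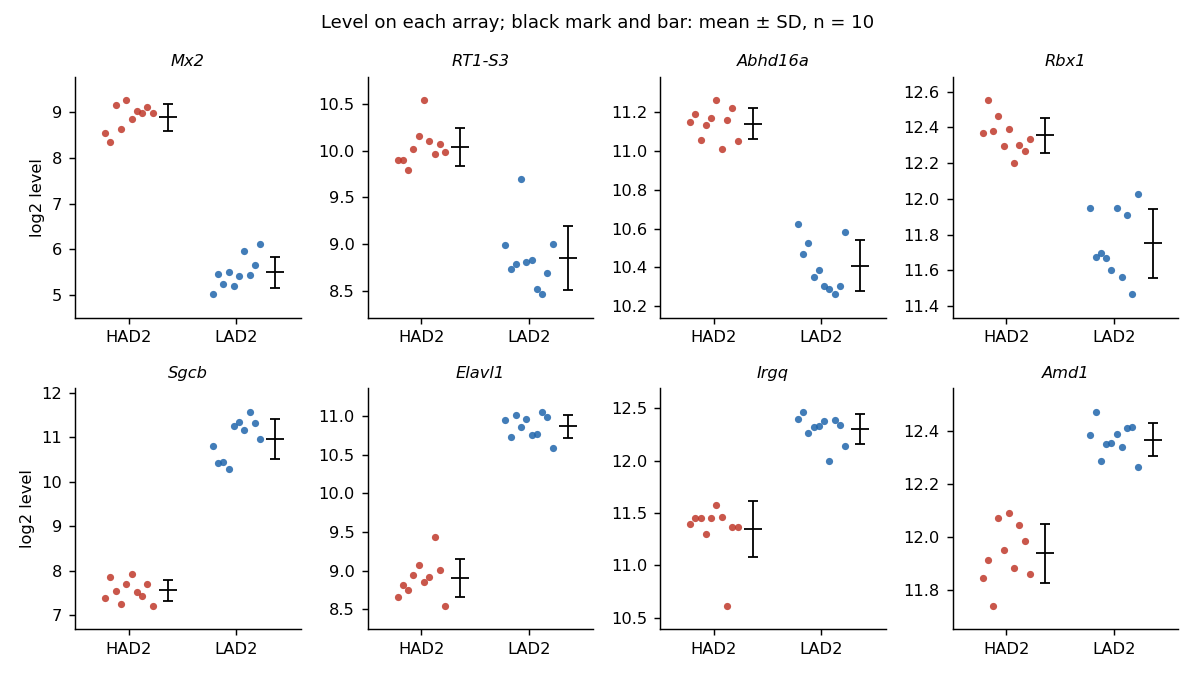
Log2 level on each of the 10 HAD2 (red) and 10 LAD2 (blue) arrays for 8 genes, with the mean ± SD in black; each panel has its own y axis. The lines do not overlap in any panel, with differences from 3.40 (Mx2) through 0.60 (Rbx1) to -0.43 (Amd1) and -3.40 (Sgcb, 1 of 3 probe sets).

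Several probe sets of a gene rarely passed together. Of 4525 genes with 2 or more probe sets, 313 (6.92%) had at least 1 that passed, against 3.78% of 9692 genes with 1 probe set, and 34 had 2 or more that passed in the same direction and none that passed in the other, 19 higher and 15 lower in HAD2. All probe sets passed in 17 of the 34. In 19 genes probe sets passed in opposite directions, and in 260 genes exactly 1 probe set passed. The 416 other probe sets of those 260 genes had the same sign as the 1 that passed in 253 cases (60.8%), with a median of 0.03 in its direction against 0.38 for the probe sets that passed. The 260 genes were chosen for having exactly 1 that passed, so smaller differences in the others follow in part from that choice. The 34 became 70 without HAD2 7 and 10 and 22 without LAD2 14, 15 and 16.

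After RT1-S3, the higher genes in agreement included Zfp61, a zinc finger gene, in which 3 of 3 probe sets passed by 0.64, 0.76 and 0.85. P2ry12, the purinergic receptor of resting microglia, was higher by 0.64 (SE 0.08; adjusted p = 4.62e-06) and 0.55 (SE 0.08; adjusted p = 7.76e-05). Its brighter probe set had levels of 11.64, 11.92 and 12.28 in HAD2 and 11.06, 11.31 and 11.58 in LAD2, without overlap. Cx3cr1, the microglial fractalkine receptor, was lower (-0.30, SE 0.06; adjusted p = 0.00330), and Aif1, a further microglial gene, differed by -0.24 and did not pass (adjusted p = 0.502). Of 13 measured microglial markers P2ry12 passed as higher and Cx3cr1 as lower (15.4%, against 3.83% of all genes). Of the 13 differences 3 were positive, and their median was -0.12. In dissected tissue, fewer cells of a type and less RNA per cell cannot be told apart.

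Other pairs of probe sets that rose together were those of Hacd1, an enzyme of very long chain fatty acid elongation, by 0.64 and 0.72, with no overlap between lines in either. The nuclear receptor Rorb was higher by 1.02 and 0.37, Rtn4ip1, a mitochondrial oxidoreductase, by 0.66 and 0.42, and Iqcc by 0.69 and 0.44. Glt8d2, a glycosyltransferase gene, was higher by 0.85 and 0.57. In Krt6c, a keratin gene, 2 of 3 probe sets passed (1.12 and 0.49, with 0.03 in the remaining one). Abcc9, the regulatory subunit of a vascular and cardiac ATP-sensitive potassium channel, was higher by 0.76 in a probe set without overlap and by 0.34 in a second one, whose call was lost in 10 of the 20 fits that left out 1 array; the remaining one differed by -0.05 and did not pass.

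Lower genes in agreement were led by Grm5, the metabotropic glutamate receptor mGluR5. Its brighter probe set had levels of 6.20, 6.61 and 7.55 in HAD2 and 7.64, 8.75 and 9.77 in LAD2 (lowest, median and highest), without overlap, a difference of -2.16 (SE 0.22; adjusted p = 4.19e-07). The dimmer one differed by -0.40 (SE 0.08; adjusted p = 0.00450), and lost its call in the fit of all 10 groups of the series (adjusted p = 0.102), where Grm5 then passed in 1 probe set alone. Elavl1, which encodes the RNA-binding protein HuR, stood at 8.55 to 9.44 in HAD2 and 10.59 to 11.06 in LAD2, a difference of -1.96 (SE 0.09; adjusted p = 2.54e-13). A second Elavl1 probe set differed by -0.57 without overlap, but the remaining one, at a level of 9.24, differed by 0.12 and did not pass.

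Ddc, the enzyme that makes dopamine and serotonin from their precursors, was lower in both probe sets, by -0.46 and -0.45. Rtel1, a DNA helicase, differed by -0.92 and -0.77 in 2 of 3 probe sets, and Nkiras1 by -0.83 and -0.61 in 2 of 3. Ythdf2, a reader of methylated mRNA, differed by -1.10 and -0.39, where the smaller difference lost its call without LAD2 12 (adjusted p = 0.0527), without HAD2 7 and 10 (adjusted p = 0.0523) and without LAD2 14, 15 and 16 (adjusted p = 0.0843). Dck, a nucleoside kinase, differed by -0.86 and -0.23 in 2 of 3 probe sets, with 0.0024 in the remaining one. Epb41l3 differed by -0.79 and -0.20, of which the latter lost its call in the fit of all 10 groups (adjusted p = 0.247). The transcription factor Zfhx3 differed by -0.76 and -0.64 in 2 of 3 probe sets, with 0.15 in the remaining one. Mapk8, the kinase JNK1, differed by -0.46 and -0.35 in 2 of 4, with 0.08 and 0.16 in the others. One probe set each of Dck, Zfhx3 and Mapk8 lost its call in 7, 10 and 13 of the 20 fits that left out 1 array. That of Dck also lost it in the fit of all 10 groups (adjusted p = 0.299). Those of Zfhx3 and Mapk8 also lost it without LAD2 14, 15 and 16 (adjusted p = 0.185 and adjusted p = 0.0818).

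Probe sets of 1 gene also passed against each other. In Sgcb, a sarcoglycan gene, 1 probe set stood at 7.22 to 7.93 in HAD2 and 10.28 to 11.57 in LAD2, a difference of -3.40 (SE 0.15; adjusted p = 1.62e-13). A second Sgcb probe set was higher in HAD2 by 0.59 (SE 0.13; adjusted p = 0.00851), a call lost without LAD2 14, 15 and 16 (adjusted p = 0.0713), and the brightest differed by 0.31 (adjusted p = 0.0741). In Lysmd4, 1 probe set had levels of 9.20 to 9.63 in HAD2 and of 5.73 to 6.42 on 8 LAD2 arrays, with LAD2 13 and 20 at 8.69 and 7.92, a difference of 2.95 (SE 0.29; adjusted p = 2.12e-07). The other 3 Lysmd4 probe sets were lower in HAD2 without overlap, by -0.81, -0.80 and -1.57.

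Rab22a, a small GTPase of endosomes, differed by -1.80 and 0.33, and by -0.11 in a probe set that did not pass. Glcci1, a glucocorticoid-induced gene, differed by -1.36 and 0.32, of which the latter lost its call in 14 of the 20 fits without 1 array; a further probe set (-0.02) did not pass. Mrps18c, of the mitochondrial ribosome, differed by 0.55 and -0.41, with 0.41 in a probe set that did not pass, and Haus1, of the augmin complex of the spindle, by 0.73 and -0.56. Wdr36 differed by 0.65, 0.42 and -0.45. For these genes the comparison of lines gives no single direction.

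**Figure D3:**
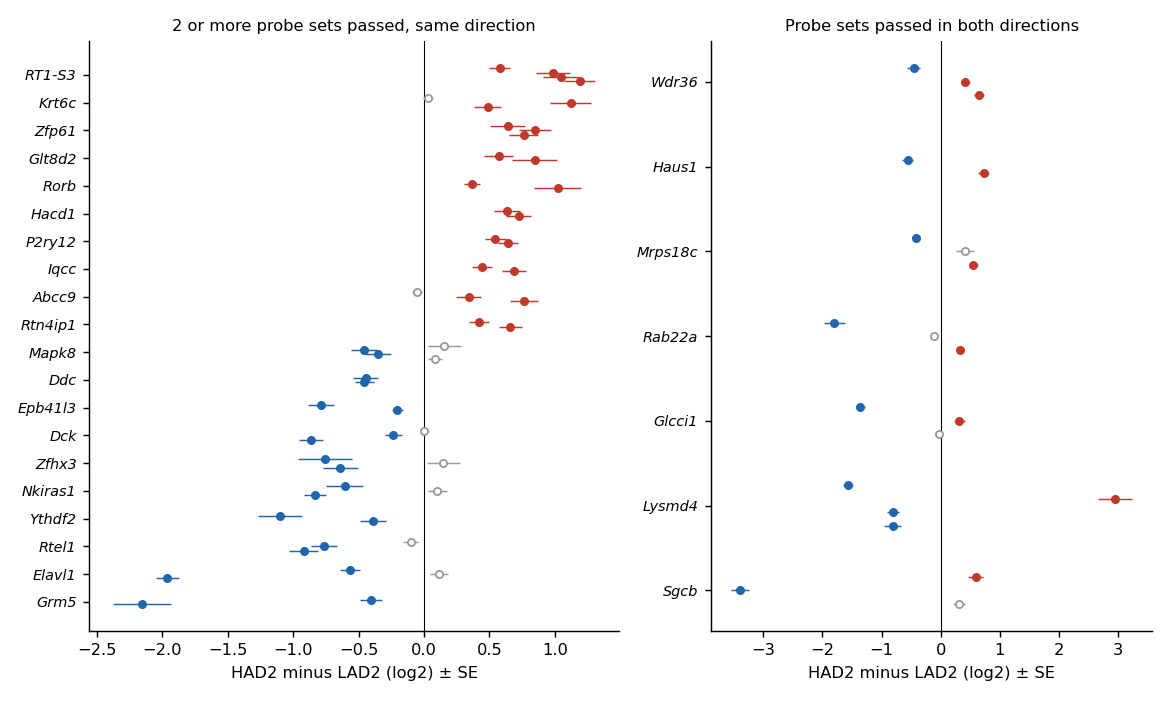
HAD2 minus LAD2 difference with its standard error (x axis, log2) for every probe set of 10 genes per direction in which 2 or more passed the same way (left) and of 7 genes in which probe sets passed in both directions (right). Filled points passed (red higher, blue lower in HAD2) and open grey points did not; RT1-S3 has 4 filled points on 1 side, whereas Lysmd4 has 1 at 2.95 and 3 below 0.

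The largest differences, apart from those already given, mostly rested on 1 probe set. Kif15, a mitotic kinesin, stood at 8.65 to 9.63 in HAD2 and 6.33 to 7.31 in LAD2 (2.23, SE 0.12; adjusted p = 3.37e-12) and Fcrl2 at 8.30 to 10.01 and 6.67 to 7.65 (2.2, SE 0.17; adjusted p = 4.68e-09). Pnlip, pancreatic lipase, stood at 6.42 to 7.09 and 8.49 to 9.61 (-2.11, SE 0.13; adjusted p = 5.24e-11). Each of these 3 genes has 1 probe set. Hspa9, a mitochondrial chaperone, differed by -1.99 (SE 0.09; adjusted p = 3.58e-13) in 1 probe set and by -0.01, 0.31 and -0.06 in its others, none of which passed; the value of -0.01 belongs to the brightest, at 11.91. Map2, a dendritic microtubule protein, showed the same kind of contrast, with -1.72 (SE 0.18; adjusted p = 9.53e-07) in 1 probe set and 0.00 in the other, at 13.69. Map2, Trak2 (-1.52 and 0.18), Wtap (1.44 and 0.18) and Ddx42 (1.08 and -0.14) were chosen for this contrast after their values were seen.

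Some of these large differences came from a split within HAD2. Plekhh1 was at 10.19 to 11.89 on 7 HAD2 arrays and at 6.80, 6.53 and 5.94 on HAD2 1, 2 and 7, while all LAD2 arrays lay between 6.25 and 7.30 (2.9, SE 0.63; adjusted p = 0.00580). Its second, brighter probe set differed by 0.01. Siglec5, a sialic acid-binding receptor, was at 7.95, 7.89 and 8.44 on HAD2 1, 2 and 5 and at 5.52 to 5.83 on the other 7 HAD2 arrays, against 8.05 to 9.31 in LAD2 (-2.07, SE 0.35; adjusted p = 0.000439). The 3 HAD2 arrays with high Siglec5 were near the LAD2 arrays, and 1 of them lay inside their range. Dguok, a mitochondrial nucleoside kinase, was at 8.35 on HAD2 1 and at 5.41 to 6.08 on the others, against 7.69 to 9.38 in LAD2 (-2.61, SE 0.29; adjusted p = 1.59e-06), and its second probe set differed by -0.08.

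Galnt1, which starts O-linked glycans, spanned 5.70 to 8.87 in HAD2 and 8.93 to 9.54 in LAD2 (-1.79, SE 0.38; adjusted p = 0.00497). Crebl2 spanned 8.01 to 11.05 in HAD2, with 4 arrays at 8.01 to 8.58, and 10.86 to 11.14 in LAD2 (-1.52, SE 0.33; adjusted p = 0.00547). Further probe sets of Galnt1 and Crebl2 did not pass. The probe sets with the highest SD within HAD2 were those of Plekhh1, Adgrg6, Galnt1 and Cdkl4, and within LAD2 those of Alb, RT1-Da, Ttr and Pxmp4. Adgrg6 ran from 6.31 to 10.58 in HAD2 and from 9.27 to 10.17 in LAD2 without passing (adjusted p = 0.219), and Pxmp4 was spread over 6.53 to 9.76 and 6.35 to 9.24 in both lines (adjusted p = 0.776). Cdkl4 was at 5.27 on HAD2 6 and at 8.47 to 9.63 on the other HAD2 arrays (adjusted p = 0.493).

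**Figure D4:**
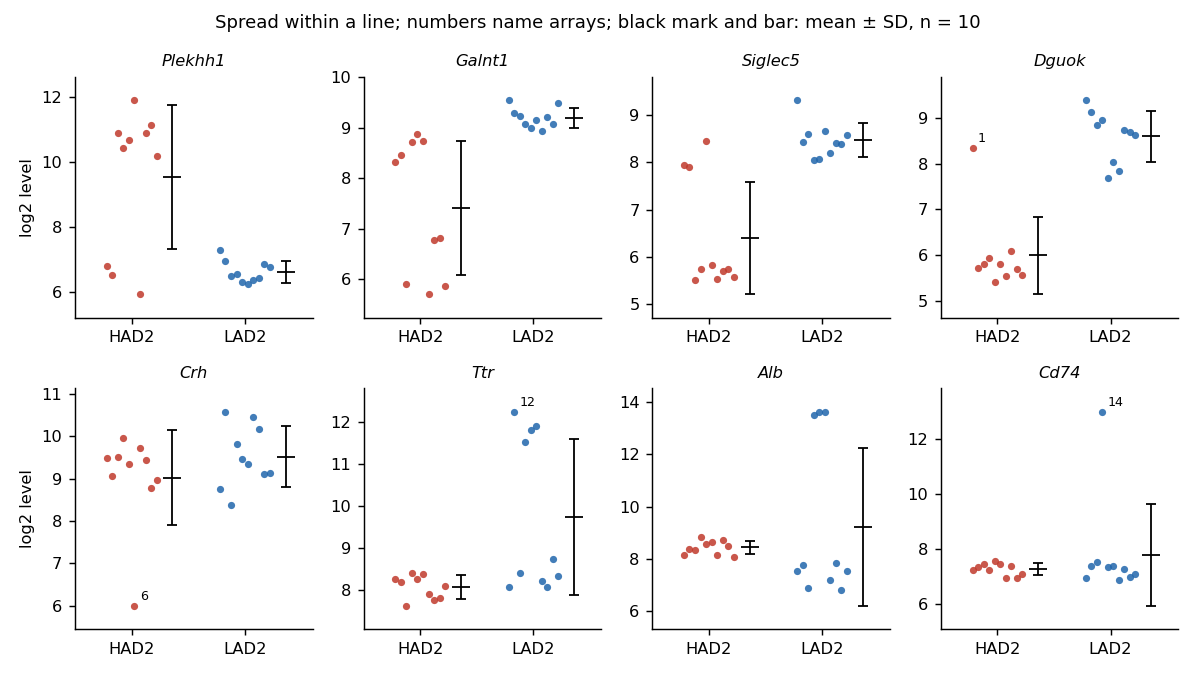
Log2 level on each HAD2 (red) and LAD2 (blue) array, with mean ± SD in black (n = 10 each) and a y axis per panel, for 8 genes with a wide spread within a line; numbers name single arrays. Plekhh1, Galnt1, Siglec5 and Dguok are split within HAD2, HAD2 6 is low in Crh at 6.0, and the high values of Ttr, Alb and Cd74 come from 4, 3 and 1 LAD2 arrays.

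Genes were also counted in lists by function, which were chosen with earlier results of these data known. Of 989 listed genes 845 were measured with 1 symbol, and 46 of them passed (5.44%, against 3.83% of all genes), 27 higher and 19 lower. Because of that choice, the higher share is not a result about these functions. The median difference over the 845 was -0.00. Without HAD2 7 and 10 the count was 79 and without LAD2 14, 15 and 16 it was 30.

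No central amygdala neuron marker passed among 18 measured (limma; 1 had an unadjusted p under 0.05). Penk, Meis2, Cyp26b1 and Pdyn differed by -0.22, -0.13, -0.07 and -0.27 (adjusted p between 0.477 and 0.824). The list median was -0.11 and 4 of 18 differences were positive, while HAD2 6 was the lowest HAD2 array in this list, and its part in that median was not tested. Likewise none passed among 11 striatal, 17 GABA, 34 neuropeptide, 33 postsynaptic or 14 oligodendrocyte genes, of which 2, 5, 2, 3 and 0 had an unadjusted p under 0.05.

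In each list of transmitter and channel genes 0 to 2 members passed. Besides Grm5, Grin3a, a modulatory NMDA receptor subunit, was higher by 0.91 (SE 0.17; adjusted p = 0.00133) among 28 glutamate genes. Ddc was lower among 28 monoamine genes and Chrna4, a nicotinic receptor subunit, by -0.40 (adjusted p = 0.00356) among 14 acetylcholine genes. Those lists had shares of 7.14%, 3.57% and 7.14%, against 3.83% of all genes. Kcna2, an axonal potassium channel, was at 11.77 to 12.63 in HAD2 and 11.51 to 12.24 in LAD2 (0.47, SE 0.10; adjusted p = 0.00389). Clcn3, a chloride-proton exchanger, was higher by 0.24 in 1 of 4 probe sets, the other 3 lying between -0.04 and -0.00, and the sodium channel gene Scn3a was lower by -0.42. Scn3a lost its call without LAD2 14, 15 and 16 and in the fit of all 10 groups (adjusted p = 0.0864 and adjusted p = 0.0669), and Chrna4 in the latter (adjusted p = 0.0831). Adcy9, an adenylyl cyclase, was higher by 0.63 without overlap (adjusted p = 5.93e-05). Rims2, of the release site, Kcnip3, a potassium channel partner, and Jun, an immediate early gene, were higher by 0.36, 0.21 and 0.32, but lost their calls in 11, 16 and 12 of the 20 fits that left out 1 array. Kcna2, Kcnip3 and Jun have further probe sets, none of which passed.

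Metabolic genes moved in both directions. Aldh1a1, an aldehyde dehydrogenase that acts on retinal and on acetaldehyde, was at 7.93, 8.46 and 9.17 in HAD2 and at 9.44, 9.85 and 10.44 in LAD2 (lowest, median and highest). The lines did not overlap (difference -1.37, SE 0.15, limma adjusted p = 8.35e-07). Aldh1a1 was the 1 gene that passed among 20 of alcohol and aldehyde metabolism (5%, against 3.83% of all genes). In fatty acid oxidation, Cpt1a, the enzyme of mitochondrial fatty acid entry, was higher by 0.56 (SE 0.07; adjusted p = 9.6e-06), whereas Acaa2, the mitochondrial thiolase, was lower by -0.55 (SE 0.06; adjusted p = 4.66e-07) and Acadl, an acyl-CoA dehydrogenase, by -0.50 (SE 0.09; adjusted p = 0.00156). In sterol synthesis Sqle, squalene epoxidase, was lower by -0.20 and Lss, lanosterol synthase, higher by 0.24. Elovl2, a fatty acid elongase, was higher by 0.23. Cpt1a, Acaa2 and Lss each have a further probe set, which did not pass. Of 50 measured cholesterol and fatty acid genes, 3 passed as higher and 3 as lower (12%, against 3.83% of all genes). Sqle, Lss and Elovl2 lost their calls in the fit of all 10 groups (adjusted p = 0.235, adjusted p = 0.185 and adjusted p = 0.0715). Without LAD2 14, 15 and 16, Lss and Elovl2 lost theirs as well (adjusted p = 0.110 and adjusted p = 0.193). Lss and Elovl2 lost their calls in 4 and 13 of the 20 fits without 1 array; for Lss these were the fits without HAD2 1, HAD2 4, LAD2 13 or LAD2 15.

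Of 37 glutathione and antioxidant genes, Hmox2, a haem oxygenase, passed as higher (0.26; lost without 1 array in 15 of 20 fits) and Gsta4, a glutathione transferase, as lower (-0.34, adjusted p = 0.00286; lost in the fit of all 10 groups, adjusted p = 0.347). The share of the glutathione and antioxidant list that passed was 5.41%, against 3.83% of all genes. Mt2A, a metallothionein, was higher by 0.40 among 18 glucocorticoid response genes, a call lost without LAD2 14, 15 and 16 (adjusted p = 0.0764) and in the fit of all 10 groups (adjusted p = 0.119). None of 50 respiratory chain genes passed, although 37 differences were positive (median 0.04; 7 with an unadjusted p under 0.05), and none of 31 ribosomal protein genes, of which 26 were positive (median 0.05; 7). Setting each array to its median lowers every difference by the same 0.02, beside these medians of 0.04 and 0.05. Why most of these differences were positive was not tested. None of 34 glycolysis and citric acid cycle genes passed (2 with an unadjusted p under 0.05). Psmd6, a proteasome subunit, was lower by -0.19, and the small heat shock gene Hspb1 higher by 0.45. The Hspb1 call was lost without LAD2 15 (adjusted p = 0.0503) and without LAD2 14, 15 and 16 (adjusted p = 0.156).

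Cell cycle genes included, besides Kif15, Ncaph, a condensin subunit, which was higher by 0.77 without overlap (SE 0.08; adjusted p = 9.62e-07), Mcm4, a replication helicase subunit, higher by 0.28 (lost without LAD2 14, 15 and 16, adjusted p = 0.106), and the kinase Nek1, lower by -0.91. In this list 4 of 38 measured genes passed as higher and 1 as lower (13.2% in all, against 3.83% of all genes), and 15 differences were positive. Rorb was the 1 gene that passed among 20 clock genes (5%, against 3.83% of all genes). In the sarcoglycan and dystroglycan list none of 9 genes passed, since its Sgcb entry is the brightest probe set (3 had an unadjusted p under 0.05).

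Of the markers of other cell types that the dissection could hold, 0 to 3 passed in each list. Among astrocyte markers Gjb6, a connexin, was higher by 0.28 (1 of 10, 10%, against 3.83% of all genes). Among vascular markers Abcb1a, the drug efflux pump of brain capillaries, and Rgs5, a pericyte gene, were higher by 0.66 and 0.42, and the endothelial receptor Tek lower by -0.28 (3 of 11, 27.3%). A further Abcb1a probe set did not pass. Nptx1 was lower by -0.66 among 10 basolateral and cortical markers (10%). None of 10 blood cell markers passed (4 with an unadjusted p under 0.05). None of 9 choroid plexus and ependymal markers passed either, although none of the 9 differences was positive (3 with an unadjusted p under 0.05). Ttr differed by -1.66 (SE 0.53; adjusted p = 0.0857), with 4 LAD2 arrays at 11.52 to 12.25 and the other 6 at 8.08 to 8.76, near the HAD2 range of 7.64 to 8.42. The choroid markers Kl and Folr1 had means of 5.26 and 5.97 in HAD2. Alb differed by -0.79 with all arrays and by 1.07 without LAD2 14, 15 and 16, where it passed (adjusted p = 0.000107). Of the genes in this paragraph that passed, Gjb6, Abcb1a, Rgs5 and Nptx1 lost their calls without those 3 LAD2 arrays (adjusted p from 0.0548 to 0.0970), and Gjb6 and Nptx1 also in the fit of all 10 groups (adjusted p = 0.119 and adjusted p = 0.151).

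Of 295 solute carrier genes, counted by symbol, 9 passed as lower and 1 as higher (3.05% and 0.339%, against 1.65% and 2.2% of all genes), in all 3.39% against 3.83%; the balance of directions was not tested. Slc3a1, a subunit of the cystine and dibasic amino acid transporter, was at 10.96 to 11.31 in HAD2 and 12.28 to 13.53 in LAD2 (-1.67, SE 0.12; adjusted p = 3.13e-09). Slc27a2, a fatty acid transporter, differed by -0.85 and the urea transporter Slc14a1 by -0.75, and Slc35c2, a Golgi transporter, was higher by 0.65 without overlap (adjusted p = 8.45e-08). A further probe set of Slc14a1 did not pass. Among 229 zinc finger genes named Zfp or Znf, 6 were higher, with Zfp612 and Zfp61 ahead of Zfp950l1 (0.62), and 3 lower, Zfp707 (-0.38), Zfp385c (-0.24) and Znf780b (-0.23). The last 2 lost their calls in 9 and 8 of the 20 fits without 1 array. The share of the Zfp and Znf genes that passed was 3.93%, against 3.83% of all genes. Kif15 was the 1 of 27 Kif genes (3.704%) and Rab22a the 1 of 66 Rab genes (1.52%) that passed.

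The genes that passed were spread over the genome. With a gene counted where at least 1 probe set passed, 677 of 14167 placed genes passed (4.78%), 673 of 13718 on autosomes (4.91%) and 4 of 445 on the X chromosome (0.899%). Chromosome 18 had 30 of 328 (9.15%) and chromosome 20, which holds the major histocompatibility complex, 35 of 399 (8.77%). Runs of 3 or more neighbouring measured genes that passed numbered 12 with 38 genes. This count was 27 without HAD2 7 and 10, 2 without LAD2 14, 15 and 16, and between 4 and 21 when 1 array was left out. The 2 longest held 4 genes each: RT1-A3 (-0.33), Vps52 (-0.12), B3galt4 (-0.28) and Wdr46 (0.38) on chromosome 20, and Zswim7 (0.38), Ttc19 (-0.21), Ncor1 (-1.10) and Pigl (-0.21) on chromosome 10. Ncor1, a nuclear receptor corepressor, was the strong member, at 8.20 to 8.72 in HAD2 and 9.41 to 10.06 in LAD2 (SE 0.08; adjusted p = 3.96e-09). This value belongs to 1 of 3 Ncor1 probe sets, and the others did not pass. Vps52 also passed in 1 of 3 probe sets. It was at 4.47 to 4.65 in HAD2 and 4.56 to 4.75 in LAD2, near the lowest mean level of any probe set (4.24).

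The next shortest runs mixed directions too. Iqcc (0.69), Ccdc28b (-0.32) and Txlna (-0.21) lie together on chromosome 5. On chromosome 20, LOC102549726 (0.24), the sialidase gene Neu1 (-0.45) and Slc44a4 (-0.20) formed a run, as did Ftcd (0.42), Spatc1l (-0.27) and Lss (0.24). On chromosome 7, Sqle (-0.20), Washc5 (0.27) and Nsmce2 (0.66) lie together. Txlna, Neu1, Lss and Nsmce2 each have a further probe set, which did not pass. Of the members of the 6 runs given here, Zswim7, Ttc19, Slc44a4 and Washc5 lost their calls in 11, 13, 14 and 13 of the 20 fits without 1 array. Lss did so in 4 of these fits, Ftcd without HAD2 2, 3, 4 or LAD2 17, and Pigl without HAD2 1 or 2. Without LAD2 14, 15 and 16, Ccdc28b, Txlna and LOC102549726 lost theirs (adjusted p = 0.0576, adjusted p = 0.0735 and adjusted p = 0.128). Zswim7, Ttc19, Pigl, Slc44a4, Lss and Washc5 also did in that fit (adjusted p from 0.0520 to 0.239). In the fit of all 10 groups Vps52, Spatc1l, Sqle, Txlna, Ftcd, Ttc19, Lss and Slc44a4 lost theirs (adjusted p from 0.0534 to 0.680).

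HAD1 and LAD1, which share no array with HAD2 and LAD2, differed in 299 probe sets (0.963%). Of these, 100 also passed in HAD2 and LAD2, which is 33.4% of the HAD1 list and 7.87% of the HAD2 list. The 100 were evenly divided: 50 went the same way in both pairs, 31 higher and 19 lower in the HAD lines, and 50 went opposite ways. Of the 1271 probe sets of HAD2 and LAD2, 644 (50.7%) had the same sign in HAD1 and LAD1. Without HAD1 28 and LAD1 37, 2 arrays that resembled the other line of their pair in an earlier examination of these data, 796 probe sets passed in HAD1 and LAD1. Of these, 242 passed in both pairs, which is 30.4% of the HAD1 list and 19.04% of the HAD2 list, 135 the same way and 107 opposite. The 2 arrays were left out for their values, so these larger counts are not independent of that choice.

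The difference of the 2 pairs was tested by itself on 39 arrays. It passed for 1048 probe sets (3.38%), 597 with a higher and 451 with a lower value in the HAD2 pair, and for 575 (45.2%) of the 1271 probe sets of HAD2 and LAD2. Without LAD1 36, the array with conflicting labels, it passed for 954. Mx2 was the extreme case: it was higher by 3.40 in HAD2 and differed by -2.95 in HAD1 (adjusted p = 0.00508), so that the pairs differed by 6.35 (SE 0.53; limma, adjusted p = 3.31e-11). Elavl1 differed by -1.96 and 1.11 (contrast -3.07), Hspa9 by -1.99 and 0.82 (contrast -2.81), Cfap69, a gene of cilia, by -0.64 and 0.55 (contrast -1.18), and Rpl26l1 by 0.65 and -0.25 (contrast 0.90). Lysmd4 differed by -1.57 in its dimmest probe set in HAD2 and by 0.09 in HAD1 (contrast -1.66).

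Large differences were also found in both pairs. Plekhh1 was higher by 2.9 and 3.01, and Kif15 by 2.23 and 1.77. Rab22a differed by -1.80 and -1.32, and Pakap, an anchor of protein kinase A, by -1.14 and -1.48, although the Pakap call in HAD2 was lost in 16 of the 20 fits without 1 array. None of the further Pakap probe sets passed in HAD2 and LAD2. As given above, Plekhh1 was split within HAD2 and its brighter probe set barely differed between HAD2 and LAD2. Another Rab22a probe set passed in the other direction there (0.33). Galnt1 and Crebl2 passed in both pairs with opposite signs, at -1.79 and 1.88 and at -1.52 and 1.53. For Plekhh1, Kif15, Rab22a and Pakap the contrast of the pairs did not pass, with values of -0.11, 0.46, -0.47 and 0.34.

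**Figure D5:**
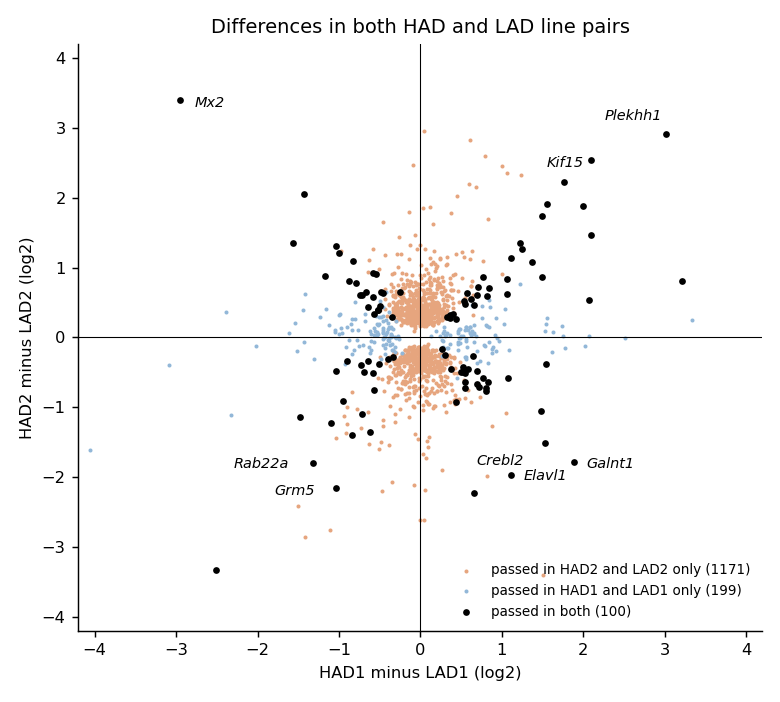
HAD1 minus LAD1 difference (x axis, log2) against the HAD2 minus LAD2 difference (y axis, log2) for probe sets that passed in at least 1 pair: 1171 in HAD2 and LAD2 alone, 199 in HAD1 and LAD1 alone and 100 in both (black). The black points fall in all 4 quadrants, 50 of them with the same sign in both pairs, and Mx2 lies at -2.95 and 3.40.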

How the data were processed

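The deposited values are log2 expression levels per probe set, made by the authors with RMA per the submitters' processing notes; RMA is a background correction and normalization that combines probes into 1 level per probe set. Neither its version nor which of the 96 arrays were normalized jointly is given in the sources used here. Per the labels' protocols, cRNA was made by a 2-cycle protocol from 25 ng of total RNA. All value columns were mapped to samples (0 left over). Without detection calls, a low level and background were not told apart; precision is limited by the number of arrays.

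After removal of 57 control probe sets, 31042 were tested on the 20 arrays with limma 3.58.1 in R 4.3.3 (lmFit, eBayes with an intensity trend, two-sided, Benjamini-Hochberg over all probe sets, threshold 0.05). "Passed" means an adjusted p under 0.05; HAD1 and LAD1 were fitted on their own 19 arrays, and the contrast of the pairs on 39. P-values measure the spread between animals of these lines. In simulated data with this design, 85 of 100 probe sets changed by 0.5 and 99 of 100 changed by 1 were recovered. The simulated noise was normal and independent for each probe set. It held no outlying arrays and no splits within a line, so these rates do not cover such data. Symbols came from the platform annotation (20826 probe sets with 1 symbol, 436 with several, 9780 not listed); 20758 matched the RefSeq table of GRCr8 by Entrez identifier, which gave the order of genes.

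The gene lists, comparisons and alternatives were chosen with earlier results of these data known. Named genes follow a rule with informative symbols: up to 10 per direction with agreeing probe sets, 8 with opposed ones, 12 per direction of moderate change, 3 per direction from each list, the 6 largest per direction, 6 neighbour runs (ties by shorter span, chosen after seeing the data), 6 with the smallest p and 8 shared with HAD1, and 4 per line with the highest SD; 1 gene with opposed probe sets is not reported here. Alternatives were array weights, a covariate for the Gapdh 3' to 5' ratio, median centring, quantile normalization, no intensity trend, a fit of all 10 groups, filters on level, 1 probe set per gene, and leaving out arrays.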

Additional observations from a re-analysis of the deposited data

Results flagged for a closer look

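In 34 of 334 groups of 10 arrays 1 array lay farther from the rest than a test for single outliers (Dixon) allows at the 95% level. Chance flags about 1 in 20 groups, and groups of probe sets of 1 gene are not independent. The groups include probe sets chosen for the highest SD within a line, such as those of Cdkl4 and RT1-Da. For these the rate of 1 in 20 does not apply. The values below are the gap to the nearest array divided by the range of the group.

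HAD2 6 accounted for 11. It was low in the central amygdala genes Penk (0.581), Meis2 (0.709) and Pdyn (0.628), in Zfhx3 (0.697), Glt8d2 (0.624) and Cdkl4 (0.734), and high in 3 RT1-S3 probe sets (0.530, 0.506 and 0.517), Kif15 (0.586) and Ncaph (0.467). LAD2 14 accounted for 7: it was high in all 4 RT1-S3 probe sets (0.542, 0.626, 0.565 and 0.546), in the class II genes RT1-DMb (0.754) and RT1-Da (0.840), and low in Clcn3 (0.644). LAD2 11 was high in Hmox2 (0.669), Acadl (0.470), Siglec5 (0.514) and Neu1 (0.485). HAD2 4 was high in both passing probe sets of Rtel1 (0.522 and 0.645) and in Rab22a (0.583). LAD2 20 was high in Krt6c (0.569) and Fcrl2 (0.518).

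Single arrays stood apart in Dguok (HAD2 1, high, 0.772), Irgq (HAD2 8, low, 0.712), Esyt2 (HAD2 10, high, 0.554), Snrpd1 (LAD2 12, high, 0.561), RT1-M3-1 (LAD2 13, high, 0.50), Rpl26l1 (LAD2 16, low, 0.470) and Adcy9 (LAD2 17, low, 0.495). Of the genes that passed with a split or a wide spread within HAD2, single HAD2 arrays had values near or inside the LAD2 range in Siglec5, Dguok, Plekhh1, Crebl2 and Galnt1.

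The line pairs themselves differed, by the contrast of HAD2 minus LAD2 with HAD1 minus LAD1 (limma, all adjusted p under 0.05), in 1048 probe sets. Among the named genes this contrast was 6.35 for Mx2, -3.07 for Elavl1, -2.81 for Hspa9, -1.66 for Lysmd4, -1.18 for Cfap69 and 0.90 for Rpl26l1. It was -3.67 for Galnt1 and -3.05 for Crebl2, which passed in both pairs with opposite signs.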

How the results depend on the processing

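No paired analysis was possible because HAD2 animals are numbered 1 to 10 and LAD2 animals 11 to 20, so the lines share no replicate number. Of 161 named probe sets past the test, 118 kept their call in every setting, of 30 run, in which they were tested. A further 43 lost it in at least 1, and 0 changed sign. Only 108 of the 161 were tested with 1 probe set per gene and 115 in the brighter 50% of probe sets. Without LAD2 14, 15 and 16, 31 lost their call, and in the fit of all 10 groups 20 did. The count of 1271 was 549 with 1 probe set per gene, 823 in the brighter 50% of probe sets, 2204 without HAD2 7 and 10, and 1082 to 1730 when 1 array was left out (LAD2 19 and LAD2 11). The 34 genes in agreement became 70 without HAD2 7 and 10, 22 without LAD2 14, 15 and 16, 56 with array weights and 15 in the brighter probe sets. The 19 genes with opposed probe sets became 10 without LAD2 14, 15 and 16 and 12 in the brighter probe sets. The 205 moderate changes became 356 without HAD2 7 and 10 and 569 with a level floor at the 50th percentile, and the 46 list genes became 79 and 30 without the 2 and the 3 arrays. The 12 runs of neighbours became 27 and 2 in the same order, 19 with array weights and 4 to 21 without 1 array, and the 1048 contrast calls became 683 in the brighter probe sets. Differences that did not pass changed sign for Cyp26b1 (0.00073), Alb (1.07) and Cd74 (0.11) without LAD2 14, 15 and 16, for Cd74 (-0.61 to 0.065 without 1 array) without LAD2 14, and for Pxmp4 (-0.13) with array weights; for Alb and Cd74 the arrays left out are those with the high values, and for the others the cause was not tested. Fewer probe sets were tested in the brighter set and with 1 per gene. The settings without HAD2 7 and 10 and without LAD2 14, 15 and 16 were chosen after seeing the data.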

Other observations

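The densest stretch of 20 neighbouring measured genes lay on chromosome 10, where 9 of 20 passed; it was chosen after its values were seen. Besides Zswim7, Ttc19, Ncor1 and Pigl it held Epn2 (0.43), an endocytic adaptor gene, Specc1 (0.37) and Lrrc75a (0.69), which were higher in HAD2, and Mmgt2 (-0.27) and Tvp23b (-0.24), which were lower. The stretch also held the adenosine receptor gene Adora2b, which differed by -0.12 and did not pass (adjusted p = 0.356).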
